A study of Homo sapiens with 12 samples.

Results

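The genes described here make, load and transcribe the MHC class I molecule. They are HLA-B, HLA-C, HLA-E, HLA-F, B2M, TAP1, TAP2, TAPBP and NLRC5. They were chosen by name as a gene family and not by their values, though earlier results of these data were known. All 9 were listed in both deposited tables of transcript abundance, among 55514 genes in the table of ZNF683 and Mock libraries and 44389 genes in the table of doxycycline libraries. The cells were Jurkat, an established human leukaemic T cell line grown in RPMI with fetal calf serum, sequenced as bulk RNA. The gene ZNF683 codes for the transcription factor Hobit, found in tissue-resident lymphocytes.

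The 12 libraries formed 4 groups of 3. ZNF683 libraries carried the genotype label of doxycycline-induced ZNF683, and their reference was Jurkat labelled Mock. Dox+ libraries came from Hobit cultures with 1 ug/uL of doxycycline, as the labels write the dose, and their reference was the Dox- libraries of Hobit cultures at 0 ug/uL. The sources used here give neither the construct or promoter of the inducible ZNF683, nor what the Mock cells carried, nor whether Mock cells received doxycycline. Whether the 3 libraries of a group were grown as separate cultures is not stated, and the spread behind each p-value may therefore be technical.

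MHC class I molecules display peptides from inside the cell to CD8+ T cells and natural killer cells. A polymorphic or conserved heavy chain pairs with beta-2-microglobulin in the endoplasmic reticulum, where the TAP transporter delivers peptides and tapasin bridges the transporter to the empty chain. NLRC5 is a transactivator that is recruited to class I promoters by factors bound at an upstream module of X and Y boxes, and interferon-responsive elements lie close to that module in many of these genes.

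Promoters are shown to set 3 heavy chains and B2M beside TAP1 and TAPBP. With both strands counted, CCAATCA was in every chain gene window examined and in no window of TAP1, TAP2 or TAPBP. The other motifs searched crossed that division. CCAATCA lay on the strand of the gene in the 3 heavy chains but on the opposite strand in B2M, so these matches need not be the same element. The windows of HLA-E and NLRC5 were not used here. The sequences are the 250 bases upstream of the RefSeq transcript start on GRCh38.p14, written 5′ to 3′ on the strand of the gene. They lie at chr6:31357180-31357429 (minus strand) for HLA-B, chr6:31272093-31272342 (minus) for HLA-C, chr6:29723184-29723433 (plus) for HLA-F, chr15:44711267-44711516 (plus) for B2M, chr6:32853705-32853954 (minus) for the first of the TAP1 starts and chr6:33314079-33314328 (minus) for TAPBP. Capitals mark 4 motifs searched on both strands, with N as any base. CCAATCA holds the letters CCAAT, and TGACG is the first bases of a cyclic AMP element. GAAANNGAA and GAANNGAAA stand for the core of an interferon element. The capitals do not say which CCAAT match, if any, is the Y box.
HLA-B: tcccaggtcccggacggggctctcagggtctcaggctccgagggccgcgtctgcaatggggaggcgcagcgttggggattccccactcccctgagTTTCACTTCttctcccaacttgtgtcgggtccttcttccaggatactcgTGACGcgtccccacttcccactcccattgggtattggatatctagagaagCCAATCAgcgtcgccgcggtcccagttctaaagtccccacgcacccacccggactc
HLA-C: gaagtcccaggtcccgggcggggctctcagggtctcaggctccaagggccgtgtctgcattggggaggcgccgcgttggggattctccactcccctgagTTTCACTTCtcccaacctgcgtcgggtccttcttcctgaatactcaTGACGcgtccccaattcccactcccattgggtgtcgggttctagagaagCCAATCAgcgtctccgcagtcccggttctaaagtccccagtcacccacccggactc
HLA-F: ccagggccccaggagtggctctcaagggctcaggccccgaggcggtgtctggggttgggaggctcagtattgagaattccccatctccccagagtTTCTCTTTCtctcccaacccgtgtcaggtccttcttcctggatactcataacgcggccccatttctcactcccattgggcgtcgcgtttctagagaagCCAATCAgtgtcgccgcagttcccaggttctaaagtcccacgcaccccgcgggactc
B2M: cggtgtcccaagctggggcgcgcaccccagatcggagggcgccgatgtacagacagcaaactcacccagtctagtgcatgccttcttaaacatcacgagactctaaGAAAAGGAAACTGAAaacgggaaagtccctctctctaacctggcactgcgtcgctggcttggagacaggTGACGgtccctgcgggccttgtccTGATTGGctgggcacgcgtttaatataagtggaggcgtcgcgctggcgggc
TAP1: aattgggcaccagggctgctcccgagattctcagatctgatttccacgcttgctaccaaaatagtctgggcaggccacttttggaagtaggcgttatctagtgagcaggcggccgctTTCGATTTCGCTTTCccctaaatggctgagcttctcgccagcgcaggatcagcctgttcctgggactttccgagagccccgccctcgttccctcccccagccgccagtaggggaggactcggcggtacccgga
TAPBP: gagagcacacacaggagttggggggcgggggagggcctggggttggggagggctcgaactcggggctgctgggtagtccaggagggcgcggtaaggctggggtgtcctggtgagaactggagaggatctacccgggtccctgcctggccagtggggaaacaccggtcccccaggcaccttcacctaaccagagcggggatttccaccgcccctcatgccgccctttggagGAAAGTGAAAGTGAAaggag

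CCAATCA lay 56 bases upstream of the start in HLA-B, 56 in HLA-C, 57 in HLA-F and 51 in B2M, where it reads TGATTGG on the strand shown. It was in 6.62% of 35116 RefSeq promoter windows of the same length. CCAAT alone, found in 32% of windows, was not marked by capitals. Outside CCAATCA, it lay on the opposite strand at 81 and 74 bases in HLA-B, 192 and 80 in HLA-C, 82 in HLA-F and 249 in TAP1. On the strand of the gene it also lay at 95 bases in HLA-C. TGACG, found in 21.2% of all windows, lay 106 bases upstream in HLA-B, 105 in HLA-C, 75 in B2M and 35 in TAP2. GAAANNGAA, found in 6.88% of windows, lay at 155 bases in HLA-F, at 144 and 138 in B2M, at 133 and 127 in TAP1, at 58 in TAP2 and at 20 and 14 in TAPBP. GAANNGAAA, found in 6.56% of windows, lay at 155 bases in HLA-B, 151 in HLA-C and 63 in TAP2. Where matches overlap, the capitals run together. A match of letters is a description and not evidence of a bound factor. GENCODE v29 places the outermost starts of HLA-F, TAP1 and TAPBP upstream of these windows.

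In GENCODE v29 on GRCh38, 7 of the genes lie in the MHC on chromosome 6: HLA-F at 29722775-29738528, HLA-E at 30489467-30494205, HLA-C at 31268749-31272130, HLA-B at 31269491-31357188, TAP2 at 32821833-32838780, TAP1 at 32845209-32853978 and TAPBP at 33299694-33314387. B2M lies on chromosome 15 at 44711487-44718877 and NLRC5 on chromosome 16 at 56989485-57083531. No source used here names the build behind the deposited values. The annotated spans of HLA-B and HLA-C overlap, TAP1 borders PSMB9, and an antisense gene overlaps HLA-F. HLA heavy chains are near-identical over much of their length and Jurkat alleles differ from any reference, so the split of reads between HLA genes is uncertain, as is that between overlapping genes where strand use is not stated.

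Values are in TPM, a length-corrected relative abundance, which allows levels of different genes to be compared within a library. TPM keeps no record of depth, so the number of reads behind each value is unknown. The 12 libraries summed to between 992727 and 998497 TPM over the listed genes. Dox- libraries 1 and 2 stood apart from the rest. A single non-coding transcript, AL135790.1, took 50.7% of all TPM in Dox- library 1, against 12.8% in library 2 of that group and between 4.94% and 10.5% elsewhere. The stress gene HSPA6 stood at 637 TPM in Dox- library 2 and at no more than 0.351 TPM in the other 5 libraries of that table. In the other table it was 0.515, 0.399 and 0.618 TPM in ZNF683 libraries, against 6.85, 5.88 and 4.06 TPM in Mock libraries, without overlap. Its bearing on the class I values was not tested. The 11 T cell markers were detected in every library, and summed to 4621 to 5015 TPM in ZNF683, 4324 to 4928 TPM in Mock, 3890 to 4217 TPM in Dox+, and 1711, 1697 and 3460 TPM in Dox- libraries 1, 2 and 3. The 5 B cell markers summed to 37.8 to 55.4 TPM in ZNF683, 41.0 to 58.7 TPM in Mock, 26.7 to 30.7 TPM in Dox+ and 10.4 to 25.0 TPM in Dox-. In Dox- library 2, the 4 fibroblast markers summed to 18.2 TPM, against at most 2.10 TPM in the other libraries of its table. That table lists 2 of the 3 erythroid markers. These summed to 20.2 TPM in Dox- library 2, against at most 1.57 TPM in the others. Monocyte markers summed to at most 9.07 TPM and epithelial markers to at most 6.38 TPM in any library. The ZNF683 transcript itself was 1.17, 1.76 and 1.04 TPM in ZNF683 libraries, against 0.715, 1.59 and 0.681 TPM in Mock libraries, which overlap. It was 0.453, 0.774 and 0.571 TPM in Dox+ libraries, against 0.115, 0.239 and 0.451 TPM in Dox- libraries, so at these levels it is a weak check of the labels in both tables.

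Because of these libraries, the log2 changes below are given on TPM as deposited, and those of the doxycycline comparison also after dividing each library by its median-of-ratios size factor. This scaling sets the median gene level and not one transcript as the yardstick. The size factor was 0.583 for Dox- library 1 and 1.05 to 1.22 for the other 5 doxycycline-table libraries. It was 0.973 to 1.01 for ZNF683 and 0.943 to 1.09 for Mock libraries. In bulk RNA, fewer cells with a transcript and less of it per cell cannot be told apart.

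The class I genes were expressed over a wide range in Jurkat cells. B2M, the light chain common to all class I molecules, was the highest by far, and HLA-F and TAP2 the lowest. In ZNF683 libraries the means ran from B2M at 4764 ± 532 TPM through HLA-B at 129 ± 6.02, HLA-C at 122 ± 3.12, TAPBP at 104 ± 15.4, HLA-E at 98.2 ± 6.72, TAP1 at 72.4 ± 8.83, NLRC5 at 33.9 ± 2.23 and TAP2 at 28.97 ± 4.03 to HLA-F at 16.8 ± 1.11 TPM (SD, n = 3). TAPBP and HLA-E overlapped in that order, and in Mock libraries HLA-B, HLA-C, TAPBP and HLA-E all did, at means of 110.1, 117, 112 and 109 TPM. In Dox+ libraries HLA-E, at 76.4 ± 13.0 TPM, stood before TAPBP at 63.7 ± 1.85 TPM, and these overlapped, as did TAP2 at 18.2 ± 2.51 and HLA-F at 15.5 ± 2.78 TPM.

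Between ZNF683 and Mock libraries no class I gene passed the test, and all 9 pairs of groups overlapped. Dox+ libraries had higher mean log2 levels than Dox- libraries for all 9 genes on TPM as deposited and for 7 of 9 after median-of-ratios scaling. The median change of all tested genes was also positive, at 0.32 as deposited and 0.13 after scaling. No class I gene passed the test there either. Dox- libraries spread more widely than Dox+ libraries, and the part of this spread in the result was not tested.

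**Figure D1:**
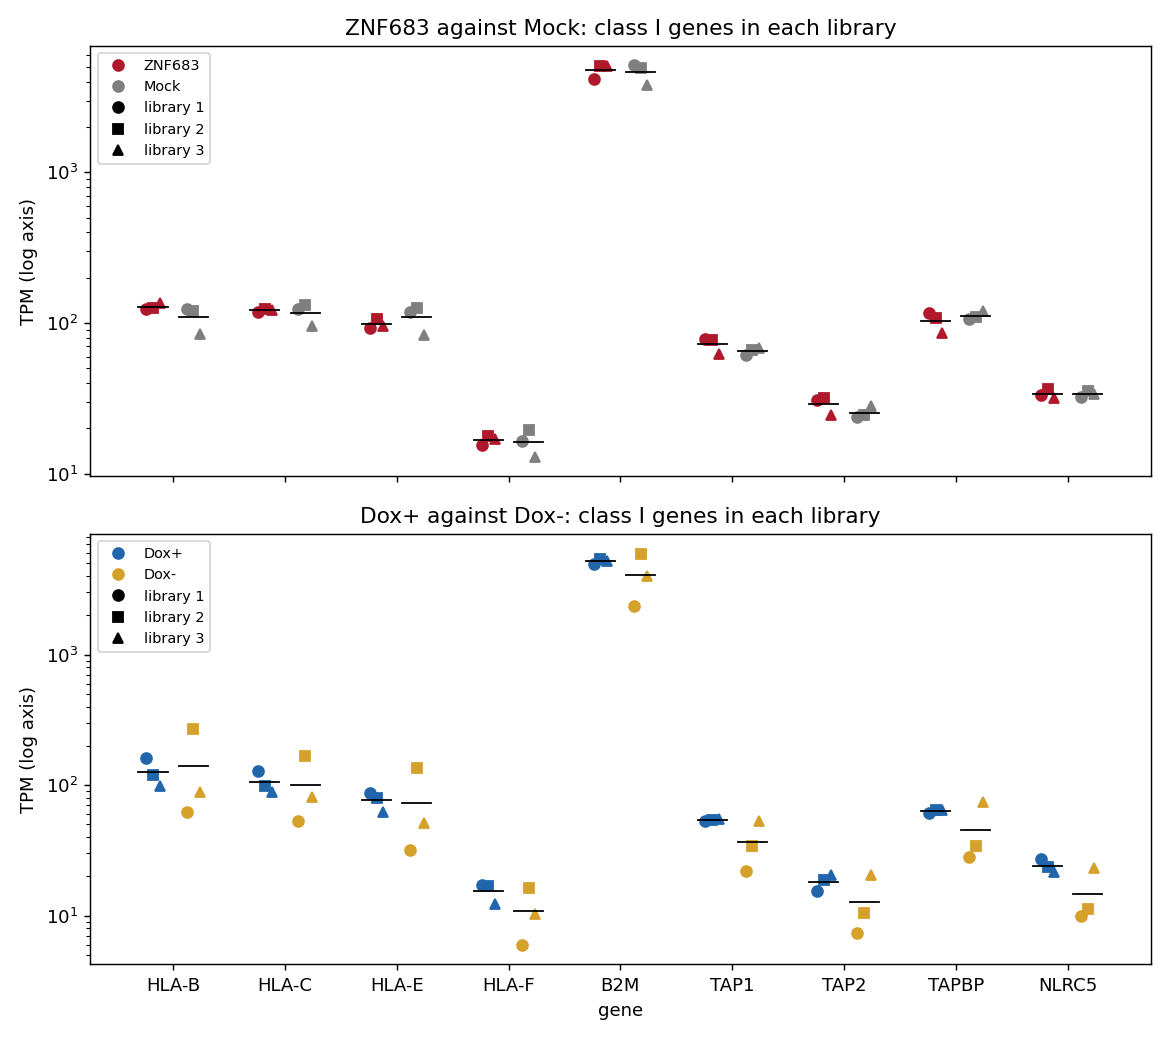
TPM of each class I gene (log axis) in every library, ZNF683 beside Mock in the upper panel and Dox+ beside Dox- in the lower panel; each point is a library and each black bar the mean of 3. Groups overlap for all genes in the upper panel, and Dox- libraries scatter more widely than Dox+ libraries in the lower one.

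Among the heavy chains, HLA-B, a classical chain that presents peptides to CD8+ T cells, had 125, 126 and 136 TPM in ZNF683 libraries, against 125, 120.4 and 85.2 TPM in Mock libraries. Mock library 3 was the low one, and the groups overlapped. The log2 change was 0.24 ± 0.15 (standard error, n = 3 each) with a limma adjusted p of 0.484. HLA-C, a classical chain that also engages killer-cell receptors, had 118, 124 and 123 TPM in ZNF683 libraries, against 123, 132 and 95.9 TPM in Mock libraries. Again Mock library 3 was the low one, and the log2 change was 0.07 ± 0.13 (limma adjusted p = 0.820).

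HLA-E, a conserved chain that shows leader peptides to NKG2 receptors, had 93.0, 106 and 95.9 TPM in ZNF683 libraries, against 119, 126 and 82.9 TPM in Mock libraries. The Mock libraries lay on either side of the ZNF683 libraries, with a log2 change of -0.13 ± 0.16 (limma adjusted p = 0.709). HLA-F, a conserved chain mostly held inside the cell, had 15.6, 17.8 and 16.9 TPM in ZNF683 libraries, against 16.4, 19.4 and 13.0 TPM in Mock libraries, a log2 change of 0.06 ± 0.15 (limma adjusted p = 0.868). B2M had 4150.5, 5058 and 5084 TPM in ZNF683 libraries, against 5128, 4909.6 and 3804 TPM in Mock libraries. Its log2 change was 0.05 ± 0.17 (limma adjusted p = 0.900).

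Mock library 3 was thus the lowest of its group for all 5 chain genes. Without it, the log2 changes of HLA-C, HLA-F and B2M turned negative, at -0.07, -0.09 and -0.08.

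TAP1, a subunit of the peptide transporter, had 78.3, 76.6 and 62.3 TPM in ZNF683 libraries, against 61.8, 66.4 and 68.0 TPM in Mock libraries. ZNF683 library 3 fell among the Mock libraries, and the log2 change was 0.14 ± 0.12 (limma adjusted p = 0.582). TAP2, the partner subunit, had 30.7, 31.8 and 24.4 TPM in ZNF683 libraries, against 23.8, 24.4 and 28.2 TPM in Mock libraries, with the same library low. Its log2 change was 0.17 ± 0.13 (limma adjusted p = 0.546).

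TAPBP, which encodes tapasin, had 116, 109 and 86.5 TPM in ZNF683 libraries, against 106, 110.4 and 119 TPM in Mock libraries. The log2 change was -0.12 ± 0.13 (limma adjusted p = 0.676), and ZNF683 library 3 was again the low one. NLRC5 had 33.4, 36.3 and 31.9 TPM in ZNF683 libraries, against 32.1, 35.6 and 33.9 TPM in Mock libraries. Its group means were both 33.9 TPM, and the adjusted p from limma was 0.993.

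Over the whole table, 5 of 16588 genes tested passed limma's adjusted p of 0.05, or 0.0301%, and 0 of the 9 class I genes did. None of the 9 had an unadjusted limma p under 0.05. None had groups that did not overlap, while 8.71% of tested genes were higher and 8.51% lower in every ZNF683 library than in every Mock library. After median-of-ratios scaling the class I count remained 0, against 11.8% of genes higher. The class I genes had a median log2 change of 0.06, with 6 of 9 positive, and all tested genes a median of 0.03.

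**Figure D2:**
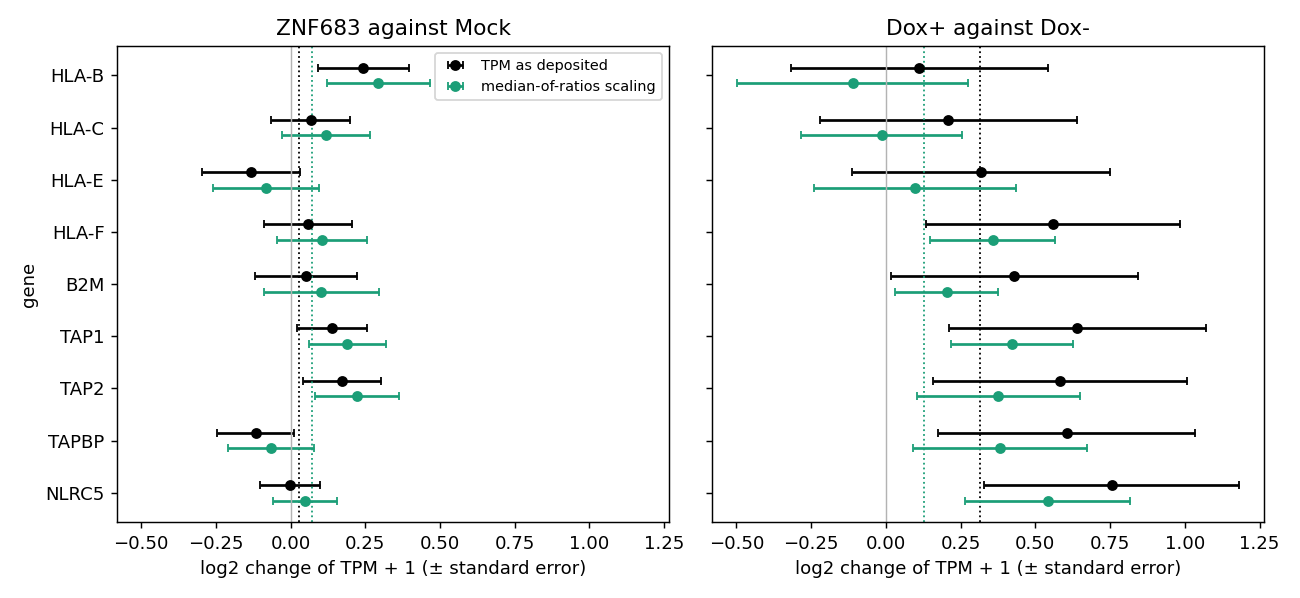
Log2 change of each class I gene (mean with standard error, 3 libraries against 3), ZNF683 against Mock on the left and Dox+ against Dox- on the right, on TPM as deposited (black) and after median-of-ratios scaling (green). Dotted lines mark the median change of all tested genes in the matching colour, which is 0.32 as deposited and 0.13 after scaling in the right panel.

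Ratios of class I genes to each other within a library do not depend on how the library was scaled. Of 7 ratios, 3 separated the ZNF683 libraries from the Mock libraries. How often ratios between other genes did so was not tested. Among single genes, 8.71% were higher and 8.51% lower throughout. The HLA-B to HLA-C ratio was 1.05, 1.01 and 1.11 in ZNF683 libraries, against 1.01, 0.911 and 0.888 in Mock libraries, with the ZNF683 values all higher though by little between the closest libraries. The ratio of HLA-E to the sum of HLA-B and HLA-C was 0.383, 0.423 and 0.371 in ZNF683 libraries, against 0.479, 0.501 and 0.458 in Mock libraries, all lower in ZNF683 libraries. The ratio of TAPBP to the sum of TAP1 and TAP2 was 1.06, 1.00 and 0.998 in ZNF683 libraries, against 1.24, 1.22 and 1.24 in Mock libraries, the tightest of the 3 separations.

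As means, HLA-B to HLA-C was 1.06 ± 0.047 in ZNF683 and 0.937 ± 0.066 in Mock libraries (SD, n = 3 each), a log2 difference of 0.18. HLA-E to classical chains was 0.392 ± 0.027 in ZNF683 and 0.479 ± 0.021 in Mock libraries, a log2 difference of -0.29. TAPBP to the transporter was 1.02 ± 0.037 in ZNF683 and 1.23 ± 0.013 in Mock libraries, a log2 difference of -0.27. Each had a two-sided exact permutation p of 0.1, the smallest that 3 libraries against 3 allow, and an adjusted p of 0.233 over the 7 ratios. None therefore passed the threshold of 0.05. The read split between HLA genes enters the first and second of these ratios but not the one of tapasin to the transporter.

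The other 4 ratios overlapped. B2M to the sum of the 4 heavy chains was 11.8, 13.5 and 13.7 in ZNF683 libraries, against 13.4, 12.3 and 13.7 in Mock libraries (exact permutation p = 0.8). TAP1 to TAP2 was 2.55, 2.41 and 2.56 in ZNF683 libraries, against 2.59, 2.72 and 2.41 in Mock libraries (exact permutation p = 0.4). HLA-F and NLRC5 relative to the classical chains had exact permutation p-values of 0.2 and 0.5.

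**Figure D3:**
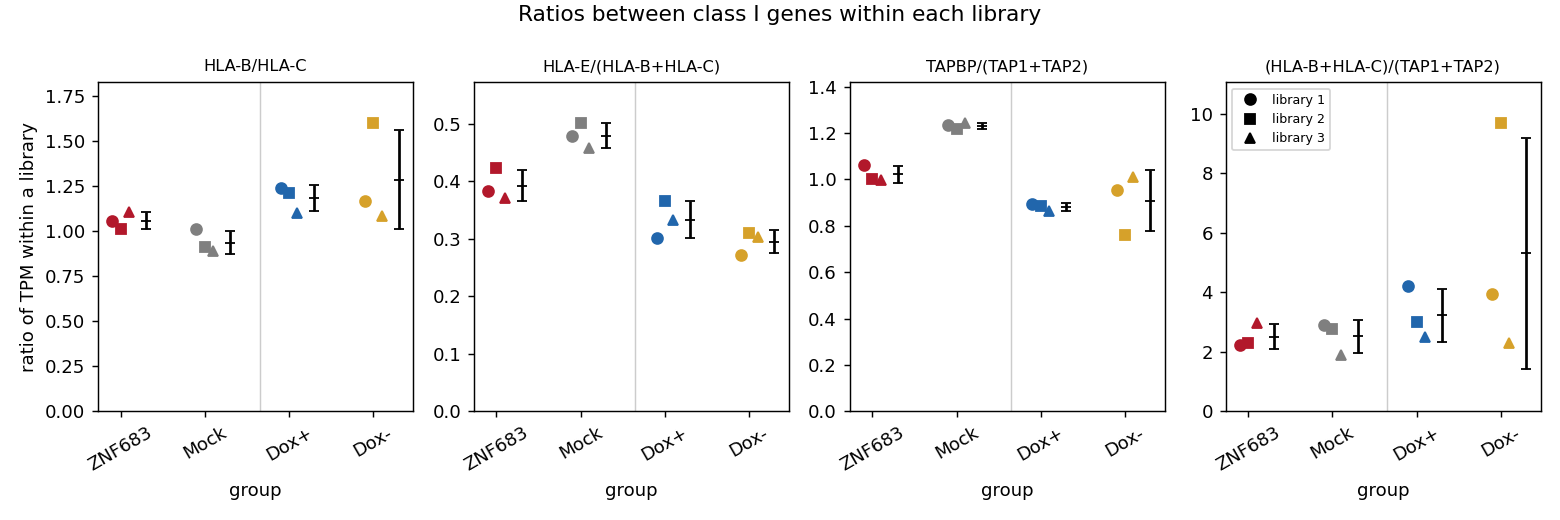
Ratios of TPM between class I genes within each library, with the axis from 0; marker shapes give the library number and black bars the mean ± SD of 3 libraries. In the first 3 panels ZNF683 and Mock libraries do not overlap, and in the last panel Dox- library 2 stands alone at 9.68.

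The doxycycline comparison asks what 1 ug/uL of the inducer did to cultures that carry the Hobit construct. HLA-B had 160.1, 119.7 and 97.9 TPM in Dox+ libraries, against 62.5, 267 and 88.4 TPM in Dox- libraries. The extremes were both Dox- libraries, library 1 low and library 2 high. The log2 change was 0.11 ± 0.43 (limma adjusted p = 0.926). On TPM as deposited, the variance behind this error came from the trend over all genes and not from HLA-B alone. HLA-C had 129, 98.9 and 88.8 TPM in Dox+ libraries, against 53.4, 167 and 81.5 TPM in Dox- libraries, the same order of libraries. Its log2 change was 0.21 ± 0.43 (limma adjusted p = 0.853). Both turned to small negative values after median-of-ratios scaling, -0.11 ± 0.39 for HLA-B and -0.01 ± 0.27 for HLA-C.

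HLA-E had 87.3, 80.0 and 62.0 TPM in Dox+ libraries, against 31.6, 135 and 51.5 TPM in Dox- libraries, a log2 change of 0.32 ± 0.43 (limma adjusted p = 0.784). HLA-F had 17.3, 16.9 and 12.3 TPM in Dox+ libraries, against 5.99, 16.3 and 10.3 TPM in Dox- libraries, a log2 change of 0.56 ± 0.42 (limma adjusted p = 0.737). Dox- library 2 was the highest of all 6 libraries for HLA-E, whereas for HLA-F it lay among the Dox+ libraries. B2M had 4929.6, 5392 and 5183 TPM in Dox+ libraries, against 2370.4, 5930.4 and 4008 TPM in Dox- libraries, a log2 change of 0.43 ± 0.41 (limma adjusted p = 0.738). After median-of-ratios scaling these changes were smaller, at 0.097 ± 0.34 for HLA-E (limma adjusted p = 0.890), 0.36 ± 0.21 for HLA-F and 0.20 ± 0.17 for B2M (limma adjusted p = 0.685 for both).

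TAP1 had 53.4, 54.3 and 54.7 TPM in Dox+ libraries, against 22.0, 34.5 and 53.2 TPM in Dox- libraries. All Dox+ values were higher, by a hair against Dox- library 3, and the log2 change was 0.64 ± 0.43 (limma adjusted p = 0.737). TAP2 had 15.4, 18.8 and 20.3 TPM in Dox+ libraries, against 7.39, 10.5 and 20.4 TPM in Dox- libraries, a log2 change of 0.58 ± 0.43 (limma adjusted p = 0.737). TAPBP had 61.6, 64.8 and 64.7 TPM in Dox+ libraries, against 28.1, 34.2 and 74.4 TPM in Dox- libraries, a log2 change of 0.60 ± 0.43 (limma adjusted p = 0.737). For these genes Dox- libraries 1 and 2 were both low, and Dox- library 3 stood close to or above the Dox+ libraries. After median-of-ratios scaling the log2 changes were 0.38 ± 0.27 for TAP2 and 0.38 ± 0.29 for TAPBP (limma adjusted p = 0.685 for both).

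NLRC5 had 27.3, 23.6 and 21.4 TPM in Dox+ libraries, against 9.89, 11.3 and 23.1 TPM in Dox- libraries. It had the largest log2 change of the 9 genes, 0.76 ± 0.43, with a limma adjusted p of 0.737. After median-of-ratios scaling it was 23.8, 21.0 and 20.4 in Dox+ libraries, against 17.0, 9.27 and 19.6 in Dox- libraries, which no longer overlapped, and its log2 change was 0.54 ± 0.28 (limma adjusted p = 0.685). TAP1, so scaled, was 46.7, 48.4 and 52.1 in Dox+ libraries, against 37.8, 28.2 and 45.0 in Dox- libraries, with a log2 change of 0.42 ± 0.20 (limma adjusted p = 0.685).

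The coefficient of variation of TAP1 was 1.23% in Dox+ libraries, against 42.8% in Dox- libraries, and after scaling it was 5.62% in Dox+ libraries, against 22.9% in Dox- libraries. For TAP2, the other transporter subunit, it was 13.8% in Dox+ libraries, against 53.4% in Dox- libraries. For HLA-B it was 25.1% in Dox+ libraries, against 80.0% in Dox- libraries, and after scaling 21.2% in Dox+ libraries, against 56.4% in Dox- libraries.

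Over all genes of the doxycycline libraries, 60 of 15148 genes passed limma's adjusted p of 0.05, or 0.396%, and 0 of the 9 class I genes did, with 0 at an unadjusted limma p under 0.05. Of the 9, 1 gene (TAP1) was higher in every Dox+ than in every Dox- library, against 7.91% of all tested genes, and 0 were lower throughout, against 0.891%. After median-of-ratios scaling 2 of the 9, TAP1 and NLRC5, were higher throughout, against 9.45% of genes. The median log2 change of the class I genes was 0.56, with 9 of 9 positive, but that of all tested genes was already 0.32. After scaling the medians were 0.36 for class I genes, with 7 of 9 positive, and 0.13 for all tested genes.

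Which Dox- library was kept decided the result. Without Dox- library 3, limma called 2788 genes, 2754 of them higher in Dox+, and 4 class I genes among them: NLRC5 with a log2 change of 1.11 (limma adjusted p = 0.0342), TAPBP with 1.02 (limma adjusted p = 0.0342), TAP2 with 0.96 (limma adjusted p = 0.0476) and TAP1 with 0.95 (limma adjusted p = 0.0476). With median-of-ratios scaling as well, that fit called 0 class I genes and 2 genes in all. Without Dox- libraries 1 and 2, an alternative chosen after seeing the data, the genes divided. The chain genes kept positive log2 changes, 0.48 for HLA-B, 0.35 for HLA-C, 0.55 for HLA-E, 0.53 for HLA-F and 0.37 for B2M. TAP1 and NLRC5 came to 0.03 and 0.05, and TAP2 and TAPBP to -0.17 and -0.22. That fit rests on a single Dox- library, assumed to vary like the Dox+ libraries, and limma called 0 genes in it, with 545 at an unadjusted p under 0.05.

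All 7 ratios within a library overlapped between Dox+ and Dox- libraries, with two-sided exact permutation p-values of 0.2 to 0.9 and adjusted p-values of 0.9. The HLA-B to HLA-C ratio was 1.24, 1.21 and 1.10 in Dox+ libraries, against 1.17, 1.60 and 1.09 in Dox- libraries. HLA-E to the classical chains was 0.302, 0.366 and 0.332 in Dox+ libraries, against 0.273, 0.310 and 0.303 in Dox- libraries. TAPBP to the transporter was 0.895, 0.887 and 0.863 in Dox+ libraries, against 0.954, 0.761 and 1.01 in Dox- libraries. So the ratios that separated ZNF683 from Mock libraries did not separate Dox+ from Dox- libraries. The difference between the comparisons was not tested for the ratios.

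B2M to the 4 heavy chains was 12.5, 17.1 and 19.9 in Dox+ libraries, against 15.4, 10.1 and 17.3 in Dox- libraries. NLRC5 to the classical chains was 0.0942, 0.108 and 0.115 in Dox+ libraries, against 0.0853, 0.0261 and 0.136 in Dox- libraries, where library 2 was the low one.

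For single genes, the ZNF683 effect minus the doxycycline effect was tested over the 12 libraries. No class I gene passed, among 2 of 14468 genes that did (0.0138%). The largest difference was in NLRC5, -0.76 ± 0.40 on the log2 scale (limma adjusted p = 0.876), beside a median of -0.28 over all genes. TAPBP had -0.72 ± 0.42 and HLA-B 0.13 ± 0.54, the only positive one of the 9 on TPM as deposited. After median-of-ratios scaling HLA-B had 0.41 and HLA-C 0.13, and the limma adjusted p was 0.982 for all 9.

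The chain genes moved together from library to library, and so did TAP1, TAP2, TAPBP and NLRC5. With median-of-ratios scaling and each table centred on its own mean, all 10 pairs of chain genes were positively correlated over the 12 libraries, with Pearson r between 0.62 and 0.98. The highest was between HLA-B and HLA-C. All 6 pairs among TAP1, TAP2, TAPBP and NLRC5 were positive too, with r between 0.77 and 0.95, the highest between TAP1 and TAP2. Across the sets, only 2 of 20 pairs were positive, with a median r of -0.48. These are descriptions of libraries that share a table, a scaling and, in places, a group. The share of positive pairs among all tested genes is not given here. The counts therefore do not tell the class I genes from other genes. The plan listed NLRC5 apart from TAP1, TAP2 and TAPBP, and placing it with them was not planned.

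The relation across the sets changed with the libraries and the scaling used. In Dox- library 2 the chain genes averaged 0.49 above the table mean on the log2 scale and the other set -0.74. HLA-B stood at 0.91, HLA-C at 0.52 and HLA-E at 0.73, against -0.57 for TAP1, -0.67 for TAP2, -0.83 for TAPBP and -0.87 for NLRC5. HLA-F and B2M were closer to the mean, at 0.12 and 0.15. The same library held 637 TPM of HSPA6, the lowest T cell marker sum and the highest fibroblast and erythroid marker sums, and their part in the result was not tested.

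Without Dox- library 2, the median r across the sets was -0.02 over 11 libraries, with 9 of 20 pairs positive, while it was 0.78 among chain genes and 0.72 within the other set. On TPM as deposited, 18 of 20 pairs across the sets were positive over 12 libraries, with a median of 0.27. In the 6 ZNF683 and Mock libraries alone, 3 of 20 were positive as deposited, with a median of -0.22, and 11 of 20 after scaling, with a median of 0.02. Pairs within each set stayed positive in all of these.

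**Figure D4:**
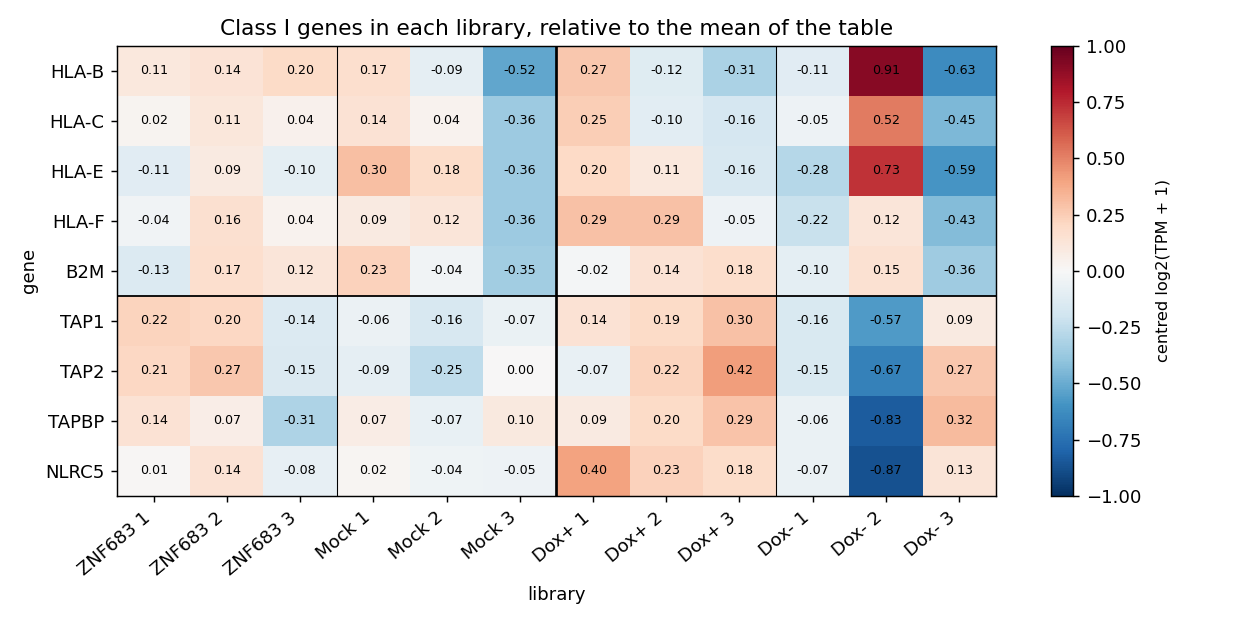
Log2(TPM + 1) of each class I gene in each library after median-of-ratios scaling, minus the mean of the 6 libraries of its table; the horizontal line parts the chain genes from TAP1, TAP2, TAPBP and NLRC5. Dox- library 2 is high for HLA-B, HLA-C and HLA-E and low for all genes of the lower set, while Mock library 3 is low for the chain genes.

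Other libraries also showed the sets apart. In Dox- library 3 the chain genes averaged -0.49 and the other set 0.20. In Mock library 3 the chain genes averaged -0.39, with HLA-B at -0.52, while TAPBP stood at 0.10 and TAP1 at -0.07. The summed level of HLA-B and HLA-C over that of TAP1 and TAP2, a ratio chosen after seeing the data, was 2.23, 2.31 and 2.98 in ZNF683 libraries, against 2.90, 2.78 and 1.88 in Mock libraries. It was 4.21, 2.99 and 2.49 in Dox+ libraries, against 3.94, 9.68 and 2.31 in Dox- libraries. It overlapped in both comparisons, with exact permutation p-values of 1 and 0.7.

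**Figure D5:**
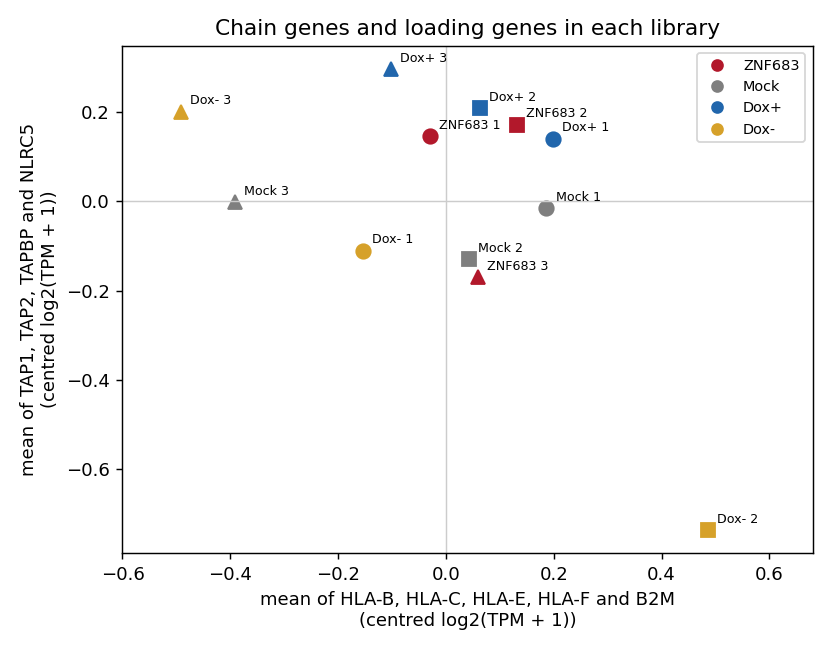
Mean centred log2(TPM + 1) of the 5 chain genes (horizontal) and of TAP1, TAP2, TAPBP and NLRC5 (vertical) in each of the 12 libraries, after median-of-ratios scaling and centring within each table. Dox- library 2 lies alone at 0.49 and -0.74, and Dox- library 3 and Mock library 3 lie to the left at -0.49 and -0.39.

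Among 10893 other protein-coding genes tested in both tables, the 5 whose centred levels were most like the mean of the 9 class I genes over the 12 libraries were LRP10 (Pearson r = 0.90), PCBP4 (0.89), SMIM14 (0.88), STAC3 (0.88) and TMEM106C (0.87). That mean averages sets that went opposite ways in Dox- library 2.

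Other genes of the pathway were read from lists. In neither comparison did limma call any gene of any list, in either direction, at an adjusted p of 0.05. Among partners of the loading complex and enzymes that trim peptides, 14 of 16 had positive changes between ZNF683 and Mock libraries, with a median log2 change of 0.19 beside 0.03 over all genes. SPPL2A, an intramembrane protease, averaged 73.6 ± 7.38 TPM in ZNF683 and 54.2 ± 9.82 TPM in Mock libraries (SD, n = 3 each; limma adjusted p = 0.329). PDIA3, the disulfide isomerase of the loading complex, averaged 472 ± 76.5 TPM in ZNF683 and 375 ± 54.7 TPM in Mock libraries (limma adjusted p = 0.414). The immunoproteasome is a complex that cuts proteins into class I peptides. All 6 genes listed for it had negative changes on TPM as deposited, with a median of -0.06. After scaling, 2 of them turned positive. PSMB8 averaged 213 ± 10.2 TPM in ZNF683 and 223 ± 3.97 TPM in Mock libraries.

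Between Dox+ and Dox- libraries all 16 partner and trimming genes and all 6 immunoproteasome genes had positive changes, with medians of 0.49 and 0.55 beside 0.32 over all genes. After scaling the medians were 0.27 and 0.33 beside 0.13, with 13 of 16 and 6 of 6 positive. ERAP2, an aminopeptidase that trims peptides, had 51.6, 57.2 and 62.0 TPM in Dox+ libraries, against 25.3, 22.1 and 57.4 TPM in Dox- libraries. PSMB9, the neighbour of TAP1, had 159.5, 169 and 186 TPM in Dox+ libraries, against 70.9, 90.8 and 166 TPM in Dox- libraries. Like TAP1 and TAPBP, these were low in Dox- libraries 1 and 2.

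Of 19 factors of class I promoters, 14 had positive changes in ZNF683 libraries, with a median of 0.11 beside 0.03 over all genes. RFXAP, a subunit of the complex that binds the X box, had 7.37, 16.7 and 15.0 TPM in ZNF683 libraries, against 5.35, 6.60 and 8.46 TPM in Mock libraries, a log2 change of 0.79 ± 0.28 (limma adjusted p = 0.343). CREBBP, a histone acetyltransferase, averaged 2.80 ± 0.22 TPM in ZNF683 and 3.59 ± 0.577 TPM in Mock libraries (limma adjusted p = 0.427). Its groups did not overlap on TPM as deposited, where 8.51% of all tested genes were likewise lower throughout. After median-of-ratios scaling 0 of the 19 were lower throughout. In Dox+ libraries 17 of 19 were positive, with a median of 0.36 beside 0.32 over all genes, and after scaling the medians were 0.14 and 0.13. IRF1, the interferon-regulated factor of these promoters, had 106, 106 and 93.4 TPM in Dox+ libraries, against 39.9, 38.8 and 87.6 TPM in Dox- libraries. These did not overlap, and 7.91% of all tested genes were likewise higher throughout. The log2 change of IRF1 was 0.97 ± 0.43 (limma adjusted p = 0.722). RFX5, the DNA-binding subunit at the X box, averaged 96.0 ± 2.74 TPM in Dox+ and 60.0 ± 36.9 TPM in Dox- libraries (limma adjusted p = 0.737).

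Of 8 interferon receptor and signalling genes, 6 had positive changes in ZNF683 and 8 in Dox+ libraries, with medians of 0.09 and 0.30 beside 0.03 and 0.32 over all genes. After scaling 8 and 7 did, with medians of 0.14 and 0.13 beside 0.07 and 0.13 over all genes. IFNGR1, a chain of the interferon-gamma receptor, averaged 59.1 ± 4.59 TPM in ZNF683 and 48.9 ± 3.95 TPM in Mock libraries, without overlap (limma adjusted p = 0.365). IFNAR2, a chain of the type I interferon receptor, had 82.8, 89.9 and 83.6 TPM in ZNF683 libraries, against 77.7, 80.8 and 76.3 TPM in Mock libraries. It had 85.0, 84.7 and 84.4 TPM in Dox+ libraries, against 40.8, 54.2 and 77.4 TPM in Dox- libraries. It was higher without overlap in both comparisons, and passed the test in neither (limma adjusted p = 0.540 and 0.737). Of all tested genes, 8.71% were higher throughout in ZNF683 and 7.91% in Dox+ libraries, and the genes named here had the smallest p-values of their list.

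Of the other class I loci, 9 of 11 were tested, and 7 had positive changes in each comparison, with medians of 0.12 in ZNF683 and 0.27 in Dox+ libraries beside 0.03 and 0.32 over all genes. After scaling the Dox+ median was 0.14 beside 0.13. HLA-H, a class I pseudogene, averaged 3.21 ± 0.309 TPM in ZNF683 and 2.24 ± 0.563 TPM in Mock libraries, without overlap (limma adjusted p = 0.372). It shares sequence with the heavy chain genes, and 8.71% of all tested genes were likewise higher throughout. MICB, a stress ligand of NKG2D, averaged 23.8 ± 2.48 TPM in ZNF683 and 20.2 ± 1.20 TPM in Mock libraries. CD1D, which presents lipids to natural killer T cells, had 46.0, 46.4 and 43.4 TPM in Dox+ libraries, against 18.8, 6.43 and 43.8 TPM in Dox- libraries, a log2 change of 1.30 ± 0.43 (limma adjusted p = 0.273).

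Only 4 of 12 class II pathway genes reached the mean of 1 TPM needed to be tested. HLA-DRB1 averaged 2.98 ± 0.734 TPM in ZNF683 and 2.56 ± 0.565 TPM in Mock libraries, and HLA-DMA 8.75 ± 1.26 TPM in Dox+ and 5.79 ± 2.35 TPM in Dox- libraries. Of 10 tested genes that restrain class I or take part in its turnover, 8 had positive changes in ZNF683 and 10 in Dox+ libraries, with medians of 0.18 and 0.31 beside 0.03 and 0.32 over all genes. After scaling 6 were positive in Dox+ libraries, with a median of 0.11 beside 0.13. TMEM127, which takes part in class I turnover, averaged 2.64 ± 0.229 TPM in ZNF683 and 1.94 ± 0.19 TPM in Mock libraries (limma adjusted p = 0.376). Its groups did not overlap, as in the 8.71% of all tested genes that were higher throughout. VCP, the ATPase that extracts proteins for degradation, averaged 175 ± 17.0 TPM in Dox+ and 119 ± 71.4 TPM in Dox- libraries.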

How the data were processed

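Bulk RNA-seq of 12 Jurkat libraries was read from the deposited tables, in which the authors give TPM per gene, 1 table for ZNF683 and Mock and 1 for Dox+ and Dox-. Per the submitters' processing notes, kallisto 0.46.0 and DESeq2 1.22.2 were named, with no role stated. The genome build is not given in the sources used here, and the deposited TPM carry no depth.

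Each table was fitted alone with limma 3.58.1 in R 4.3.3 on log2(TPM + 1), with a mean-variance trend, keeping genes whose mean over the 6 libraries reached 1 TPM. Fold changes on this scale understate those of low genes. P-values were two-sided and Benjamini-Hochberg adjusted over all genes tested, with a threshold of 0.05. The prior degrees of freedom were infinite in the doxycycline table as deposited, so all its genes share the trend's variance. Ratios were tested with exact permutation tests over libraries. The fit was also run on simulated data with independent noise for each gene. Those data held no outlying library, so that run does not check the effect of the outlying Dox- libraries.

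All 9 class I genes were named, and up to 3 genes per list, by smallest unadjusted p. Members and lists were chosen with earlier results of these data known. Alternatives covered the pseudocount, the filter, scaling, leaving out AL135790.1, the moderation, each replicate and a replicate block.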

Additional observations from a re-analysis of the deposited data

How the results depend on the processing

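No class I gene was called in ZNF683 against Mock under any alternative. In Dox+ against Dox- this held except without Dox- library 3 on TPM as deposited. There 4 were called, among 2788 of 15127 genes tested. Of the single-gene values under the alternatives in ZNF683 against Mock, 170 kept direction and side of the threshold and 19 reversed. The counts over all genes moved more. For ZNF683 against Mock, 5 genes were called, against 3 with a pseudocount of 0.1 TPM, 0 with no filter (3957 at an unadjusted limma p under 0.05), 0 with a mean of at least 5 TPM (1456), 8 with robust moderation, and 0 to 60 when 1 library was left out. For Dox+ against Dox-, 60 were called, against 0 with no filter (1082), 15 with a mean of at least 5 TPM, 1 with median-of-ratios scaling, 0 with AL135790.1 left out (508), 23 with robust moderation, and 0 to 2788 when 1 library was left out.

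Whether the replicate numbers pair the libraries is not stated. Same-numbered libraries correlated at -0.21, 0.07 and -0.25 in ZNF683 and Mock and at 0.08, 0.05 and 0.36 in Dox+ and Dox-. With so few libraries per group, these values cannot decide it. With the replicate block, 0 genes (1516 at an unadjusted p under 0.05) were called for ZNF683 against Mock and 34 for Dox+ against Dox-. With the block and median-of-ratios scaling the counts were 13 and 0 (550).

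Reversed log2 changes were these. With median-of-ratios scaling, and likewise with the replicate block added, NLRC5 had 0.047 in ZNF683 against Mock, and HLA-B had -0.11 and HLA-C -0.014 in Dox+ against Dox-. With AL135790.1 left out, HLA-B had -0.19 and HLA-C -0.094 in Dox+ against Dox-. The difference of the effects for HLA-C became 0.13 with scaling and 0.14 with AL135790.1 left out. Without Dox- libraries 1 and 2, TAP2 had -0.17 and TAPBP -0.22, or -0.077 and -0.12 with scaling. When 1 library was left out, ZNF683 against Mock ranged over -0.052 to 0.11 for NLRC5, -0.20 to 0.081 for TAPBP, -0.32 to 0.046 for HLA-E, -0.069 to 0.22 for HLA-C, -0.085 to 0.19 for HLA-F and -0.081 to 0.24 for B2M. Dox+ against Dox- ranged over -0.45 to 0.72 for HLA-B, -0.24 to 0.65 for HLA-C and -0.17 to 0.89 for HLA-E. The 3 ratios that separated ZNF683 from Mock libraries kept their direction when any 1 library was left out. Other log2 ratios reversed. In ZNF683 against Mock, the ratio of B2M to the heavy chains ranged over -0.062 to 0.052 and TAP1 to TAP2 over -0.083 to 0.0016. In Dox+ against Dox-, HLA-B to HLA-C ranged over -0.21 to 0.070, B2M to the heavy chains over -0.013 to 0.40, TAP1 to TAP2 over -0.078 to 0.11, TAPBP to the transporter over -0.16 to 0.050 and NLRC5 to the classical chains over -0.032 to 1.16. The cause of these reversals was not tested. TPM gives no depth, so the counting error behind each value is unknown.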
